A study of Homo sapiens with 30 samples.

Results

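Of the 30 RNA-Seq libraries analysed, 6 came from SH-EP cells carrying WT MYCN, 3 treated with CYC065 and 3 with DMSO, and the response of this line to CYC065 is described here. The libraries were chosen by line and treatment, not by any measured value, though earlier results of these data were known. SH-EP cells, an established human NB line of mesenchymal identity, carry no MYCN amplification, and the paper reports no evidence of MYCN expression in them. The line studied holds a retroviral WT MYCN transgene under an exogenous promoter. Cells of both groups therefore carry the transgene, and they received either 1 µM CYC065 or DMSO for 6 hours. The other 24 libraries, used here for comparison, are 6 from parental SH-EP cells and 18 from lines with T58A, S62A, or T58A S62A MYCN, under the same treatments.

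CYC065 is an inhibitor of CDK9 and CDK2. CDK9 with a cyclin T forms P-TEFb, the kinase that releases paused RNA polymerase II into productive elongation, and CDK2 with cyclins E and A drives cells into and through S phase. When elongation is blocked, the mRNAs with the shortest half-lives are usually the first to be lost, whereas P-TEFb can also be freed from its inhibitory 7SK complex and serve the genes of the immediate early response.

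The 8 markers of mesenchymal NB cells were at 1 FPKM or more in all 6 libraries, as for VIM at 1766 ± 151 to 2504 ± 60.5 FPKM as deposited (SD, n = 3 each) and TWIST1 at 27.6 ± 1.396 to 7.17 ± 1.17 FPKM as deposited (SD, n = 3 each), in DMSO and CYC065 respectively. The defining adrenergic marker PHOX2A was listed at 0 in all 6, as were 6 of 6 erythroid markers, and the summed level of the 8 adrenergic markers was 2.46 to 2.88 FPKM in DMSO and 2.47 to 3.42 FPKM in CYC065. The 8 haematopoietic markers summed to 6.65 to 6.96 FPKM in DMSO and 9.53 to 14.3 FPKM in CYC065, mostly CD68, with MS4A1 at 0. Depth is unknown, but set against the deepest of the 30 libraries, itself a DMSO library of this line, the low FPKM values placed the other DMSO libraries at relative depths of 0.532 and 0.940 and the CYC065 libraries at 0.371, 0.444 and 0.555. The DMSO and CYC065 libraries overlapped in relative depth, and the mean was lower in CYC065. The labels name 3 replicates per group without saying whether they were separate cultures, so p-values measure the spread between these libraries, which may be technical.

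ERCC spike-ins, a set of synthetic RNAs, had been added to the total RNA in proportion to cell number. The median log2 level of 55 of them was 3.67, 4.21 and 4.03 in the DMSO libraries and 5.48, 5.86 and 5.63 in the CYC065 libraries. The groups did not overlap, and the mean level was 1.69 higher in CYC065 on the log2 scale (exact permutation test, two-sided, p = 0.1, the smallest that 3 libraries against 3 can give). The DMSO library at 3.67 stood below the other DMSO libraries. Less mRNA per cell and fewer cells at a given spike-in amount cannot be told apart in bulk RNA. Gene levels are therefore given on 2 scales, FPKM as deposited, which show each gene relative to the rest of its library, and FPKM scaled so that the spike-in level is equal in all libraries. FPKM values in the text are as deposited, and log2 changes, of FPKM + 0.1, are spike-in scaled unless said to be as deposited. The added 0.1 understates the change of low genes, and a value of 0 can be a failed estimate.

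**Figure D1:**
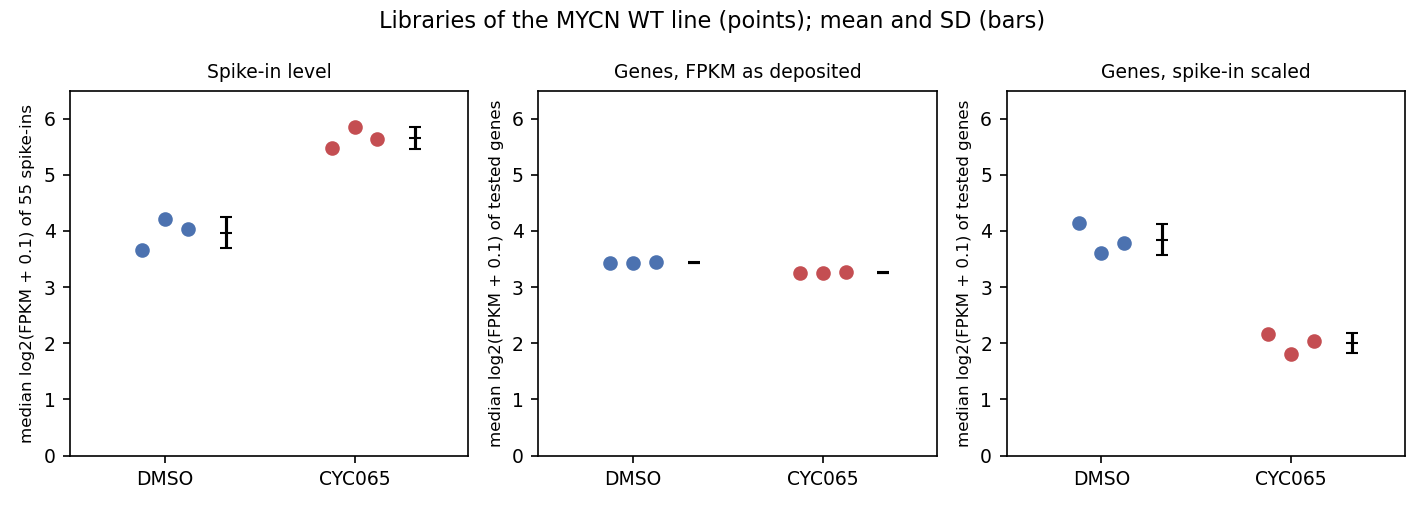
Median log2(FPKM + 0.1) of the 55 spike-ins and of the 11575 tested genes in each library of the MYCN WT line (points), with the mean and SD of 3 libraries (bars). The spike-ins were higher in all CYC065 libraries, and after spike-in scaling the median gene was lower in all of them.

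On the spike-in scale, nearly the whole transcriptome fell. Of 11575 tested genes, 10934 (94.5%) passed the threshold (limma adjusted p under 0.05), of which 10845 (93.7%) were lower and 89 (0.769%) higher, and the median log2 change was -1.57, a 2.97-fold fall. The CYC065 libraries had 96.7%, 97.1% and 96.8% of tested genes below their mean log2 level in the DMSO libraries. Falls were unequal. The middle 80% of genes lay between -2.97 and -0.88, and 9706 genes (83.9%) were at least 2-fold lower.

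As deposited, 8238 genes (71.2%) passed, with 4281 (37.0%) higher and 3957 (34.2%) lower, around a median of 0.06. All 3957 were also lower on the spike-in scale. That scaling lowers the CYC065 values relative to DMSO, so this is no separate support. Of the 4281 higher genes, 3990 fell on the spike-in scale, so for these the direction depends on the scale. On both scales together, 87 genes rose. Of the 89 spike-in scaled risers, 71 had CYC065 libraries that all lay above all DMSO libraries. The risers were called from these same libraries on that scale, so the count is no separate support. Over all tested genes, 0.717% (83 genes, these 71 among them) had such values on that scale and 38.6% as deposited.

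**Figure D2:**
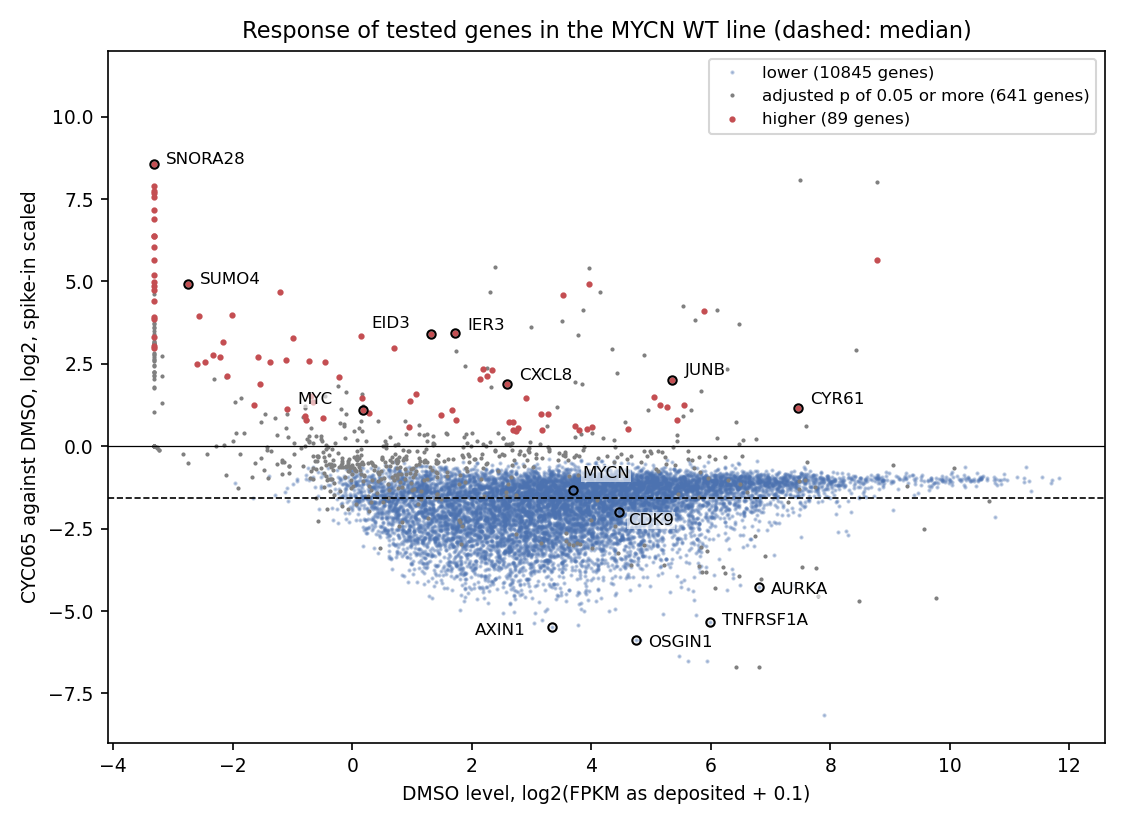
Log2 change under CYC065 on the spike-in scale against the DMSO level, log2(FPKM as deposited + 0.1), for 11575 tested genes. The 10845 lower genes form a band around the median of -1.57 (dashed), and the 89 higher genes lie above 0, with a column of them at a DMSO level of 0 FPKM.

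The largest fall among genes with at least 5 FPKM in DMSO, small RNAs aside, was that of OSGIN1. OSGIN1, a regulator of oxidative stress responses and NRF2 target (chromosome 16, 83964916 to 83999937 of GRCh37), was at 33.4, 25.03 and 22.03 FPKM in the DMSO libraries and 1.11, 1.02 and 1.49 FPKM in the CYC065 libraries. Its spike-in scaled change was -5.89 (SE 0.25, limma adjusted p = 5.75e-16), a 59.3-fold fall, and it fell by 4.36 as deposited. All its CYC065 libraries lay below all its DMSO libraries, which on the spike-in scale was part of how it was chosen.

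TNFRSF1A, the main receptor for TNF (chromosome 12, 6437923 to 6451280), was at 69.3, 61.6 and 58.3 FPKM in the DMSO libraries and 5.33, 5.11 and 3.97 FPKM in the CYC065 libraries. This is a spike-in scaled change of -5.34 (SE 0.21, limma adjusted p = 1.57e-16). MEPCE, the methylphosphate capping enzyme that holds 7SK RNA in its complex with P-TEFb (chromosome 7, 100025945 to 100031749), was at 60.4, 55.9 and 45.5 FPKM in the DMSO libraries and 5.18, 4.804 and 4.27 FPKM in the CYC065 libraries. Its change was -5.12 (SE 0.22, limma adjusted p = 5.75e-16), the largest fall among elongation factors.

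The other large falls included that of AXIN1, the scaffold of the beta-catenin destruction complex, which went from 10.1 ± 1.35 to 0.497 ± 0.156 FPKM as deposited (SD, n = 3 each), a spike-in scaled change of -5.49. PIK3R1, the regulatory subunit of PI3 kinase, fell from 8.16 ± 0.519 to 0.417 ± 0.1299 FPKM as deposited (SD, n = 3 each), a change of -5.35. EFNA4, an ephrin ligand, GOLPH3, a Golgi protein, GDF6, a BMP family ligand, FBXO34, and C12orf65 completed the 10 largest falls among genes with at least 5 FPKM in DMSO, with spike-in scaled changes from -5.54 to -5.06. Non-overlap on the spike-in scale was part of how these 10 were chosen, and 94.1% of all tested genes had non-overlapping lower values on that scale. As deposited, 35.3% of all tested genes had such values, and these 10 among them. The 10 were chosen for their large falls in the same libraries, so this is no separate support.

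**Figure D3:**
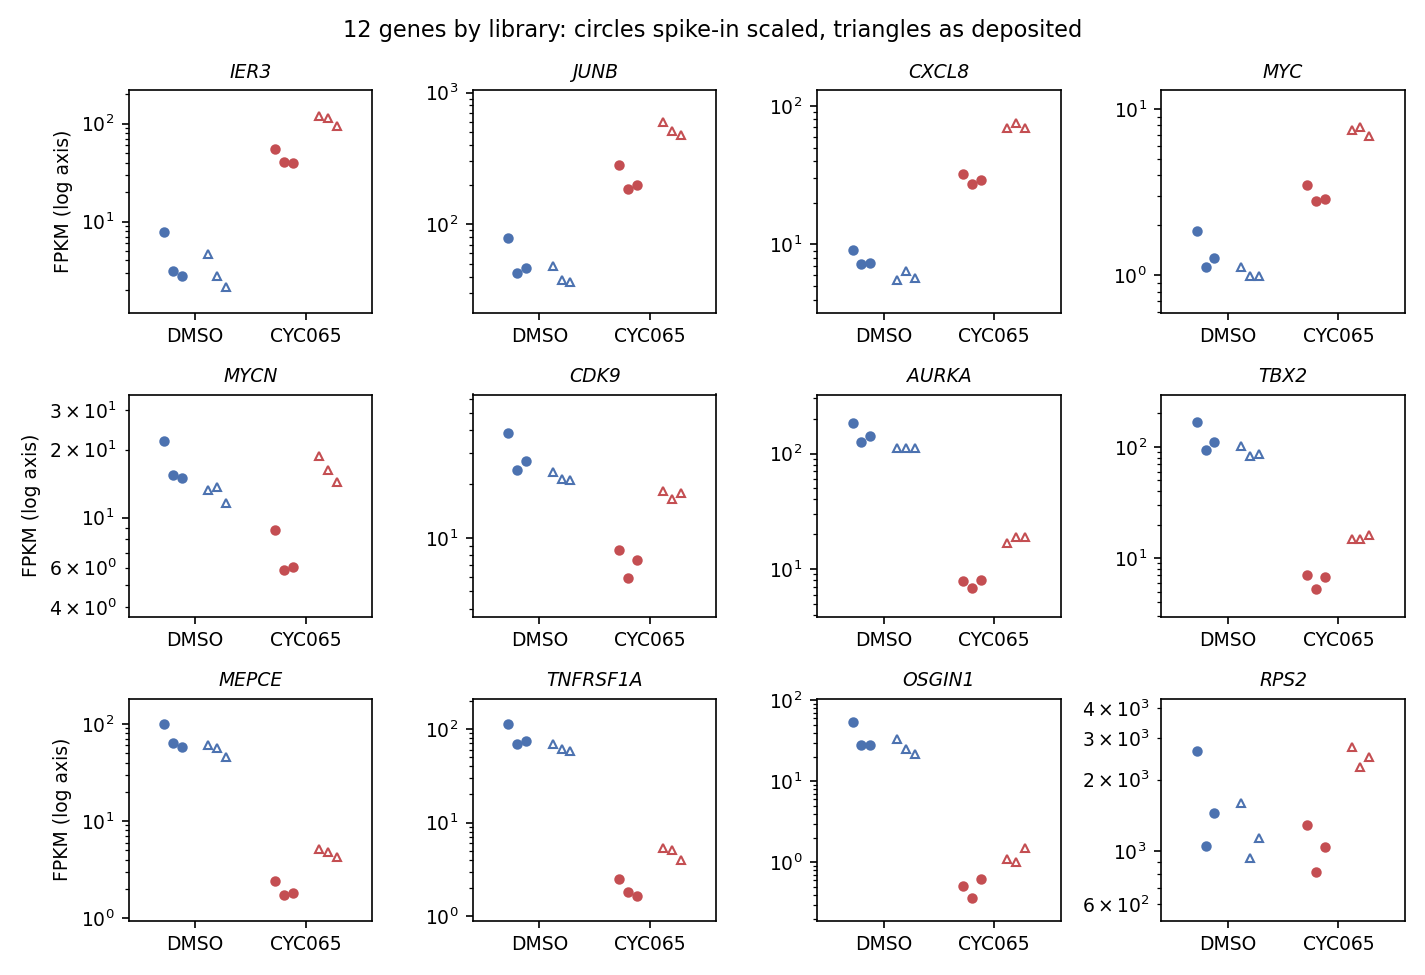
FPKM (log axis) of 12 genes in each of the 6 libraries, spike-in scaled (circles) and as deposited (triangles). IER3, JUNB, CXCL8 and MYC are higher in every CYC065 library on both scales, MYCN is lower only after spike-in scaling, CDK9, OSGIN1, TNFRSF1A, MEPCE, TBX2 and AURKA are lower on both, and RPS2 overlaps between groups after spike-in scaling and is higher as deposited.

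Of 29 immediate early genes tested, 11 rose and 13 fell on the spike-in scale, where 0.769% of all tested genes rose and 93.7% fell. The median of the list was -0.49, against -1.57 over all tested genes. As deposited, 22 rose and 4 fell, where 37.0% and 34.2% of all tested genes did. Immediate early genes encode short-lived transcription factors and RNA decay factors that respond to stimuli without new protein synthesis. IER3, a regulator of cell survival (chromosome 6, 30710976 to 30712325), was at 4.71, 2.77 and 2.15 FPKM in the DMSO libraries and 119, 113 and 94.6 FPKM in the CYC065 libraries. The groups did not overlap, and the spike-in scaled change was 3.44 (SE 0.42, limma adjusted p = 2.96e-08). Passing and non-overlap on that scale were part of how IER3 was chosen. Over all tested genes, 0.717% had non-overlapping higher values on that scale. JUNB, an AP-1 subunit (chromosome 19, 12902300 to 12904129), was at 48.1, 38.02 and 36.7 FPKM in the DMSO libraries and 602, 512 and 476 FPKM in the CYC065 libraries, a spike-in scaled change of 2.01 (SE 0.20, limma adjusted p = 9.19e-10).

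ATF3, a stress-induced transcription factor, was at 5.004, 5.39 and 4.57 FPKM in the DMSO libraries and 77.2, 85.2 and 80.5 FPKM in the CYC065 libraries. Its spike-in scaled rise was 4.99-fold, and as deposited it was 15.95-fold. BTG2, an antiproliferative p53 target, rose from 4.29 ± 0.327 to 57.95 ± 1.46 FPKM as deposited (SD, n = 3 each), by 2.05 on the spike-in scale. JUNB, EGR1, IER2 and FOSB were named after their values were seen, and their spike-in scaled changes were 2.01, 1.19, 1.24 and 0.79. The members that fell most were ZFP36L2, BTG1 and JUND, at -2.36, -2.34 and -2.34.

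Of 20 genes in the list of NF-kB feedback regulators and cytokines, 5 rose and 9 fell on the spike-in scale, against 0.769% and 93.7% of all tested genes, with a median of -0.35. As deposited, 13 were higher and 5 lower, against 37.0% and 34.2%. CXCL8, the neutrophil chemokine (chromosome 4, 74606236 to 74609433), was at 5.51, 6.45 and 5.77 FPKM in the DMSO libraries and 69.4, 75.5 and 69.5 FPKM in the CYC065 libraries, a spike-in scaled change of 1.90 (SE 0.22, limma adjusted p = 8.38e-09). TNFAIP3, which encodes the feedback inhibitor A20, rose from 0.755 ± 0.188 to 11.01 ± 1.58 FPKM as deposited (SD, n = 3 each) by 2.09, and CXCL3 rose by 2.61. The transcription factor subunits themselves went the other way. RELA fell from 27.9 ± 2.08 to 11.3 ± 0.342 FPKM as deposited (SD, n = 3 each), with changes of -2.96 on the spike-in scale and -1.298 as deposited, and RELB fell by 2.92 on the spike-in scale. Among secreted factors outside the rule, named after their values were seen, EDN1, the vasoconstrictor endothelin, rose from 0.626 ± 0.152 to 12.8 ± 0.762 FPKM as deposited (SD, n = 3 each), and GDF15, a stress-induced cytokine, from 32.9 ± 5.25 to 296 ± 17.6 FPKM as deposited (SD, n = 3 each), by 2.54 and 1.49.

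To show what precedes these genes, 120 bases upstream of a transcription start are printed for the risers CXCL8, JUNB and EGR1 and the fallers OSGIN1 and TNFRSF1A, from RefSeq promoter sequences of GRCh38.p14. A gene can have several starts. Capitals mark matches on either strand to the TATA box (searched as TATAAA), the E-box (CACGTG), the CRE (TGACGTCA) and the AP-1 site (TGANTCA). They also mark the kB site, searched as GGGRNWYYCC, and the CArG box, searched as CCWWWWWWGG. In these patterns R is A or G, W is A or T, Y is C or T and N is any base. The stretch tggaatttcc of CXCL8 differs from the kB pattern in its first letter, so it is not marked.
CXCL8, chr4:73740449-73740568, plus strand: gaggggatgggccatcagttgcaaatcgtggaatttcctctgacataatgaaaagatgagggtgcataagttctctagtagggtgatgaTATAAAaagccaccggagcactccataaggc
JUNB, chr19:12791366-12791485, plus strand: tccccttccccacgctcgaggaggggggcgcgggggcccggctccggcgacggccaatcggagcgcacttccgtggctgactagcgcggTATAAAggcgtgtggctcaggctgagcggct
EGR1, chr5:138465359-138465478, plus strand: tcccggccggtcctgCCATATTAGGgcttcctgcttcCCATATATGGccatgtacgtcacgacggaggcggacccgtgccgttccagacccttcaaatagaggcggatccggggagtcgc
OSGIN1, chr16:83953120-83953239, plus strand: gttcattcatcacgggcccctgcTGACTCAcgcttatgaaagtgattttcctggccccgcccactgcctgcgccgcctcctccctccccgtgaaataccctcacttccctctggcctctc
TNFRSF1A, chr12:6342077-6342196, minus strand: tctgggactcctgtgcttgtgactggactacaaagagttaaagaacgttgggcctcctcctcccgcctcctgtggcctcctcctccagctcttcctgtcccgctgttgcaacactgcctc
The TATAAA element stands 31 bases before the start in both CXCL8 and JUNB, and EGR1 holds CArG boxes 105 and 83 bases before its start. OSGIN1 has a TGANTCA match 97 bases before the start, and none of the motifs lies in the window of TNFRSF1A.

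Of the 89 risers, 68 were not small RNAs, and 47 of them had a promoter sequence. Within 250 bases upstream, 14 of the 47 (29.8%) held TATAAA, against 707 of 9115 tested genes (7.76%) and 58 of 933 (6.22%) among the 10% of genes that fell most. Some genes had several promoter sequences (35116 over 27305 genes), and a match in any of them counted. CACGTG, the E-box that MYC proteins bind, was held by 4 of the 47 (8.51%), against 11.6% of tested genes. Median spike-in scaled changes were -1.58 with CACGTG and -1.60 without it, and -1.503 with TATAAA and -1.61 without it. A motif match describes letters only, and the risers were counted with no test.

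Other risers lay inside or beside other genes. Of the 68, 4 were single-exon genes inside a larger gene on the same strand. EID3, in an intron of TXNRD1, named here, like TAB2, only as a host, went from 2.41 ± 0.329 to 83.9 ± 5.66 FPKM as deposited (SD, n = 3 each), a spike-in scaled change of 3.401 (SE 0.27, limma adjusted p = 7.87e-12), whereas TXNRD1 fell by 1.53 on the spike-in scale. SUMO4, inside TAB2, was listed at 0 in 2 DMSO libraries and at 0.148 FPKM in the other, and at 11.96, 8.66 and 9.12 FPKM in CYC065, while TAB2 fell by 1.04 on that scale. Over all 21 tested single-exon genes in such introns, 4 were higher and 11 lower, with a median of -0.73. Reads of host and nested gene cannot be told apart where the counting does not separate introns.

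The read-through loci ZFP91-CNTF, MINOS1-NBL1, POC1B-GALNT4 and NME1-NME2 also rose, and they share reads with their component genes, so their values are uncertain. NME1-NME2 went from 4.48 ± 1.72 to 71.5 ± 7.18 FPKM as deposited (SD, n = 3 each), whereas its components NME1 and NME2, named only as such, fell, at -1.06 and -0.94 on the spike-in scale, and rose by 0.63 and 0.75 as deposited. FAM71A, 3697 bases downstream of ATF3 on the same strand, was listed at 0 in all 3 DMSO libraries and at 9.85, 8.57 and 7.42 FPKM in CYC065. Among the 63 risers with a position, 12 (19.05%) had a same-strand gene end within 10000 bases upstream, against 21.4% of all tested genes.

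Of 279 small RNA genes tested, 21 were higher, 15 lower and 243 not past the threshold on the spike-in scale. Over all tested genes, 0.769% were higher and 93.7% lower. Of the 21, 8 had CYC065 libraries that all lay above all DMSO libraries, as did 71 of all 89 risers and 0.717% of all tested genes. SNORA28, a snoRNA within EIF5, was listed at 0 in all DMSO libraries and at 95.96, 121 and 64.5 FPKM in CYC065. MIR663AHG, a long noncoding host RNA, rose from 0.331 ± 0.145 to 32.1 ± 4.43 FPKM as deposited (SD, n = 3 each), by 4.68 on the spike-in scale. MIR663A, the microRNA precursor it is named for, was listed at means of 438 FPKM in DMSO and 65308 FPKM in CYC065. Reads of host and precursor may not be separated, so these values are uncertain. RPPH1, the RNA of RNase P made by RNA polymerase III, was at 7.93, 8.76 and 5.62 FPKM in the DMSO libraries and 71.98, 75.5 and 50.3 FPKM in the CYC065 libraries, a spike-in scaled change of 1.45 (SE 0.63, limma adjusted p = 0.0307), which lost its call under 6 of the alternatives. The libraries were poly(A)-selected, and many small RNA genes were listed at 0 in some of them.

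The targets of CYC065 and the elongation machinery changed unevenly. CDK9 (chromosome 9, 130547958 to 130553071) was at 23.5, 21.3 and 21.2 FPKM in the DMSO libraries and 18.2, 16.5 and 17.9 FPKM in the CYC065 libraries. Its change was -1.996 (SE 0.20, limma adjusted p = 6.39e-10) on the spike-in scale, beyond the median of -1.57, and -0.32 (SE 0.09, limma adjusted p = 0.00247) as deposited. The call as deposited was lost under 2 of the alternatives. CDK2 fell by 1.37 on the spike-in scale and was 0.31 higher as deposited (SE 0.07, limma adjusted p = 0.000512), a call lost under 1 of the alternatives.

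Of 34 P-TEFb and elongation genes tested, 32 fell and none rose on the spike-in scale, with a median of -1.65, close to the 93.7% lower and the median of -1.57 over all tested genes. As deposited, 16 were higher and 11 lower, where 37.0% and 34.2% of all tested genes were. HEXIM2, an inhibitor of P-TEFb, fell by 3.78, and NELFA, a subunit of the pausing factor NELF, fell by 3.56. At the other end, EAF1 of the super elongation complex, with a change of -0.02 (SE 0.19, limma adjusted p = 0.92), and CCNT2, a cyclin T, with -0.22 (SE 0.21, limma adjusted p = 0.3), did not pass on the spike-in scale, and they were 3.15-fold and 2.72-fold higher as deposited.

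All 14 genes of the other transcriptional CDKs and cyclins fell on the spike-in scale, where 93.7% of all tested genes fell (as deposited, 6 higher and 5 lower). Shares over all tested genes were 37.0% higher and 34.2% lower as deposited. CDK12, the elongation kinase of long and DNA damage genes, fell from 14.2 ± 1.19 to 3.84 ± 0.263 FPKM as deposited (SD, n = 3 each), a change of -3.49, and CDK8 and CDK7 were at -3.27 and -3.09. CCNL1 fell least, by 0.49, a call lost under 5 of the alternatives. Among 41 RNA polymerase II and Mediator genes, 40 fell, likewise near that share, with a median of -1.70 (as deposited, 16 higher and 16 lower), led by MED22 and MED1 at -3.61 and -3.10. MED26, a Mediator subunit that recruits elongation complexes, was at 0.29 (SE 0.29, limma adjusted p = 0.329).

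**Figure D4:**
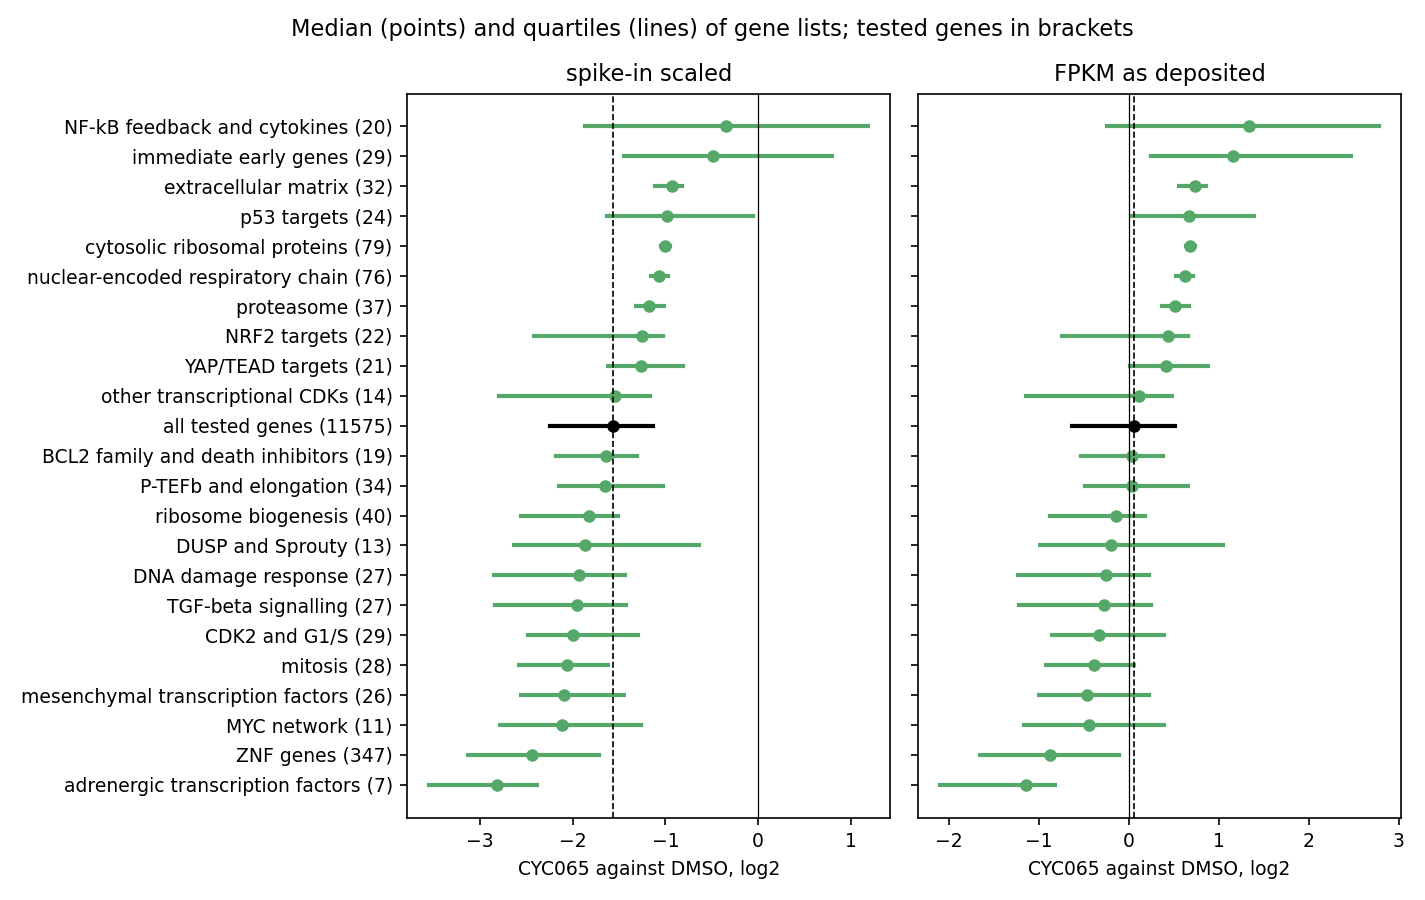
Median (points) and quartiles (lines) of the log2 change under CYC065 for 22 gene lists and for all tested genes (black), spike-in scaled and as deposited, with the number of tested genes in brackets. Among these 22, the adrenergic and ZNF lists lie lowest, at -2.82 and -2.44 on the spike-in scale, and the immediate early and NF-kB lists highest. The histone and small RNA lists are not drawn.

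MYCN (chromosome 2, 16080672 to 16087129) was at 13.3, 13.7 and 11.7 FPKM in the DMSO libraries and 18.7, 16.2 and 14.4 FPKM in the CYC065 libraries. The groups did not overlap, but the change as deposited was 0.34 (SE 0.17, limma adjusted p = 0.0699) and did not pass, though it passed under 3 of the alternatives, whereas on the spike-in scale it was -1.33 (SE 0.22, limma adjusted p = 4.35e-06). Reads of the transgene and of an endogenous MYCN transcript cannot be told apart.

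MYC, the paralog that MYCN-expressing cells usually hold low, was at 1.13, 0.995 and 0.992 FPKM in the DMSO libraries and 7.47, 7.77 and 6.88 FPKM in the CYC065 libraries and rose on both scales, by 1.09 (SE 0.22, limma adjusted p = 5.95e-05) spike-in scaled and by 2.72 (SE 0.17, limma adjusted p = 2e-12) as deposited. The other 10 tested members of the MYC network included 9 that fell, led by MGA, a MAX partner, at -3.76, MLXIP at -2.90 and MNT, a repressor partner of MAX, at -2.89, and MXD1, at -0.12, which did not pass. Of 40 ribosome biogenesis genes, many of them MYC targets, all fell, with a median of -1.83, where 93.7% of all tested genes fell (as deposited, 12 higher and 21 lower), and RRS1 was lowest at -3.74. Of 28 metabolic MYC targets, all fell with a median of -1.297, and as deposited 19 were higher and 4 lower. The shares over all tested genes were 37.0% higher and 34.2% lower as deposited.

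Mitosis and CDK2 and G1/S genes fell in numbers near the 93.7% of all tested genes that fell on the spike-in scale, and their medians were below that of all tested genes on both scales. As deposited, 37.0% of all tested genes were higher and 34.2% lower. AURKA, the mitotic kinase that stabilises MYCN protein (chromosome 20, 54944445 to 54967393), was at 112, 111 and 111 FPKM in the DMSO libraries and 16.7, 18.9 and 18.97 FPKM in the CYC065 libraries, a spike-in scaled change of -4.29 (SE 0.19, limma adjusted p = 9.18e-16). TTK, a spindle checkpoint kinase, fell by 3.59, and E2F5 and CCNE2, a cyclin E, were at -4.43 and -3.99. All 28 mitosis genes fell, with a median of -2.07 (-0.38 as deposited, 5 higher and 16 lower), and 28 of 29 CDK2 and G1/S genes, with a median of -1.99 (-0.33 as deposited, 11 higher and 16 lower). The smallest falls in that list were those of CDK6, at -0.76, and RB1, at -1.02, both higher as deposited, at 0.92 and 0.66. CDKN1A, the p53-regulated CDK inhibitor, was at 44.9, 43.8 and 40.96 FPKM in the DMSO libraries and 179.6, 160.1 and 186 FPKM in the CYC065 libraries, did not pass on the spike-in scale at 0.33 (SE 0.18, limma adjusted p = 0.0898), but passed under 3 of the alternatives, and was 2.01 higher as deposited. All 27 DNA damage response genes fell, also near the share over all tested genes, with a median of -1.93 (as deposited, 7 higher and 14 lower), led by PALB2 at -4.18 and BRCA2 at -3.71, which act in homologous recombination, and BLM at -3.71.

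Of 19 genes of the BCL2 family and death inhibitors, 16 fell and none rose on the spike-in scale, against 93.7% and 0.769% of all tested genes (as deposited, 8 higher and 6 lower). Over all tested genes, 37.0% were higher and 34.2% lower as deposited. MCL1, the short-lived BCL2 family protein, fell by 1.36 on the spike-in scale and was 0.32 higher as deposited, at 103 ± 5.64 to 129 ± 10.3 FPKM as deposited (SD, n = 3 each). Its call as deposited was lost under 1 of the alternatives. The pro-death BAK1 and the pro-survival BCL2 and BCL2L1 all fell, at -3.09, -2.62 and -2.44. The pro-death BH3-only genes BBC3 and PMAIP1 did not pass on the spike-in scale, at 0.38 (SE 0.24, limma adjusted p = 0.121) and -0.01 (SE 0.19, limma adjusted p = 0.951), and were 4.14-fold and 3.18-fold higher as deposited. The change of BBC3 passed under 3 of the alternatives. Of 24 p53 targets, 3 rose, which are BTG2, GADD45A and ZMAT3, and 17 fell, against 0.769% and 93.7% of all tested genes, with a median of -0.99 (as deposited, 16 higher and 6 lower). GADD45A, a stress sensor, rose from 35.5 ± 5.59 to 273 ± 7.67 FPKM as deposited (SD, n = 3 each), by 1.26. ZMAT3, at 0.49, lost its call under 6 of the alternatives. XPC, a nucleotide excision repair factor, fell most, at -3.36.

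Feedback regulators of MAP kinase signalling went in both directions. DUSP6, the ERK phosphatase, rose from 6.38 ± 0.419 to 34.4 ± 3.94 FPKM as deposited (SD, n = 3 each), by 0.73, and SPRY4 rose by 0.59, whereas DUSP10, a JNK and p38 phosphatase, fell from 9.49 ± 0.422 to 0.812 ± 0.361 FPKM as deposited (SD, n = 3 each), by 4.94. The call of SPRY4 was lost under 1 of the alternatives. Of 13 in the list, 2 rose and 11 fell, against 0.769% and 93.7% of all tested genes (as deposited, 5 higher and 6 lower). The shares over all tested genes as deposited were 37.0% higher and 34.2% lower. Of 21 YAP/TEAD targets, 3 rose and 17 fell (as deposited, 12 higher and 4 lower), the risers including CYR61, a matricellular protein, from 176 ± 14.4 to 1276 ± 52.8 FPKM as deposited (SD, n = 3 each), by 1.17, and NUAK2, a kinase, by 2.14. Among 27 TGF-beta genes, 26 fell (as deposited, 7 higher and 14 lower), with TGIF2 and SKI, both repressors of SMAD transcription, lowest at -4.18 and -4.15. SMAD7, the inhibitory SMAD, was at -0.14 (SE 0.16, limma adjusted p = 0.416). All these changes are spike-in scaled.

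Among transcription factors of cell state, the 7 adrenergic genes that passed the filter of 18 in the list fell on both scales, with a spike-in scaled median of -2.82 and, as deposited, of -1.14. TBX2 (chromosome 17, 59477204 to 59486827), an adrenergic T-box factor, was at 101, 82.8 and 85.9 FPKM in the DMSO libraries and 15.02, 14.7 and 16.05 FPKM in the CYC065 libraries, a spike-in scaled change of -4.22 (SE 0.19, limma adjusted p = 1.49e-15). The other 11 members of the list did not pass the filter. Of 26 mesenchymal transcription factors, all fell on the spike-in scale, with a median of -2.10, and 13 fell and 7 rose as deposited. TWIST1 was at -3.60, and FOSL2, an AP-1 subunit, at -0.71 (0.97 as deposited). Of 347 ZNF genes tested, 338 fell and 3 rose on the spike-in scale, near the 93.7% and 0.769% of all tested genes, but with a median of -2.44 against -1.57. As deposited, 227 fell and 40 rose, where 34.2% and 37.0% of all tested genes did. ZNF672 fell from 21.1 ± 0.884 to 2.01 ± 0.273 FPKM as deposited (SD, n = 3 each), by 4.92, whereas ZNF211 rose from 3.095 ± 0.555 to 21.3 ± 1.83 FPKM as deposited (SD, n = 3 each), by 1.09.

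Matrix, cytosolic ribosomal protein and respiratory chain genes had smaller median falls than all tested genes, whereas the 76 mitochondrial ribosomal protein genes, all lower, had a median of -1.59. Over all tested genes, 93.7% fell and 0.769% rose on the spike-in scale, and 37.0% rose and 34.2% fell as deposited. The spike-in scaled counts of the lists in this paragraph lie near those shares, except for the histone genes. Of 32 extracellular matrix genes, 31 fell on the spike-in scale, with a median of -0.93, while as deposited 29 rose and none fell, with a median of 0.73. DCN, a small proteoglycan, did not pass on the spike-in scale, at -0.38 (SE 0.22, limma adjusted p = 0.0975), and was 1.28 higher as deposited. Of 79 cytosolic ribosomal protein genes, 77 fell with a median of -1.01 and a quartile range from -1.05 to -0.95, and as deposited 75 rose. RPS2, a small subunit protein, had the smallest fall, -0.62 (SE 0.27, limma adjusted p = 0.033), and its spike-in scaled libraries overlapped between groups, with a call lost under 9 of the alternatives. Respiratory chain genes, 76 of 76 lower, had a median of -1.07, and proteasome genes, 37 of 37 lower, of -1.17. As deposited, 73 and 33 of these were higher. NRF2 targets fell by unequal amounts on the spike-in scale and went in both directions as deposited. All 22 fell on the spike-in scale, with a median of -1.25 (as deposited, 14 higher and 6 lower), but OSGIN1, GCLC, the rate-limiting enzyme of glutathione synthesis, and KEAP1 fell, at -5.89, -4.52 and -4.06, whereas FTH1, the ferritin heavy chain, fell by 0.82 on that scale and was 0.87 higher as deposited. Of 21 ATF4 response genes, 19 fell (as deposited, 8 higher and 10 lower), led by XBP1 at -3.63 and HERPUD1 at -3.34, and ATF3 rose. Of 24 heat shock genes, 23 fell (as deposited, 14 higher and 4 lower), led by DNAJB1, an HSP40 cochaperone, at -3.36, and HSPA2 rose by 2.57, from 0.0808 ± 0.0793 to 2.52 ± 0.531 FPKM as deposited (SD, n = 3 each). Of 44 replication-dependent histone genes, whose mRNAs end without poly(A), 10 fell and 34 did not pass, and as deposited 16 were higher and none lower. The libraries were poly(A)-selected, so the levels of the histone genes are uncertain.

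Falls varied with level and transcript length. Among the 10% of genes with the highest DMSO level, of 72.5 FPKM or more, the median spike-in scaled change was -1.12, against -2.01 between 3.38 and 5.34 FPKM, and -1.37 among the 10% with the lowest, up to 1.94 FPKM. Genes low in DMSO could pass the filter through their level in CYC065 or in other lines. The DMSO level is also the baseline of the change. The median of the lowest 10% therefore does not show how low genes respond. The genes with the shortest transcripts, up to 1180 bases, had a median of -1.19, those of 4637 to 5697 bases the lowest median, -1.81, and those with the longest, from 7506 bases, -1.68. By gene length the medians ranged only from -1.38 for the shortest genes to -1.67. Single-exon genes were at -1.38, genes of 2 to 3 exons at -1.77 and those of 20 or more exons at -1.57. These are descriptions over genes, which are not replicates.

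**Figure D5:**
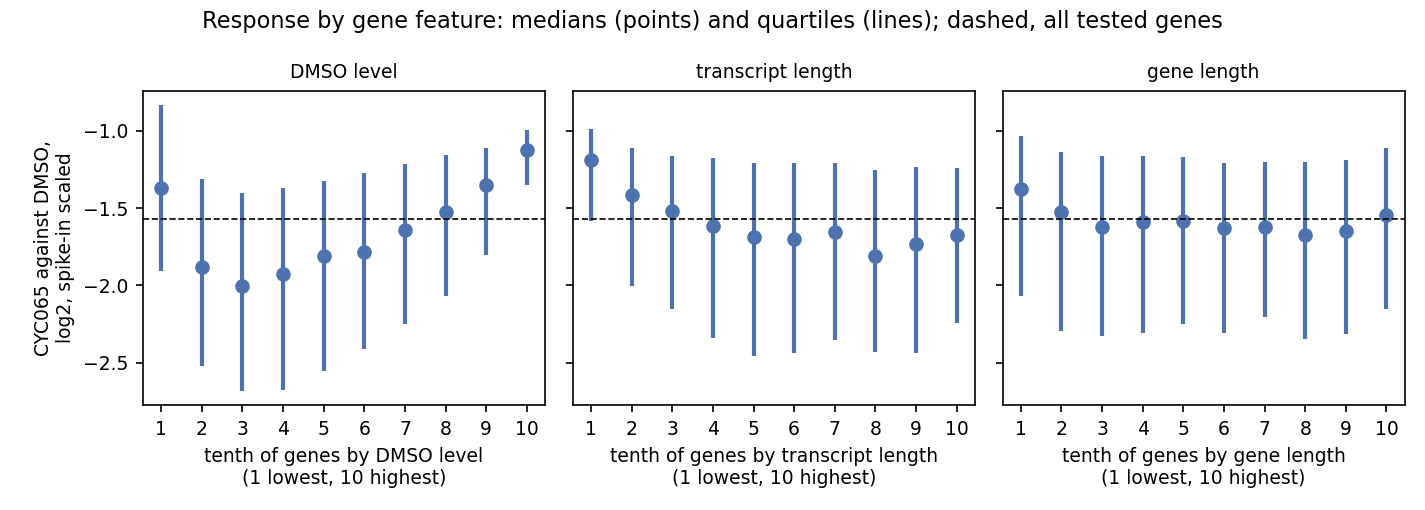
Median (points) and quartiles (lines) of the spike-in scaled log2 change under CYC065 over 10 equal groups of genes ordered by DMSO level, transcript length or gene length. The group with the highest DMSO level lies at -1.12 and that with the shortest transcripts at -1.19, above the median of all tested genes (dashed).

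The other lines answered CYC065 in the same direction for most of these genes. Of the 89 genes that rose in the WT line, the number that also rose on the spike-in scale was 74 in T58A S62A, where 1.85% of all tested genes rose, 68 in each of T58A (1.25%) and S62A (0.968%), and 64 in SH-EP (0.907%), and 58 rose in all 4. The median spike-in scaled change over all tested genes was closest to 0 for T58A S62A, at -0.97, followed by SH-EP at -1.06, T58A at -1.08 and S62A at -1.35. Relative to SH-EP, the WT response differed for 2100 genes (18.1%) on the spike-in scale, 219 of them higher (1.89%) and 1881 lower (16.3%), and for 3306 (28.6%) as deposited, 1208 higher (10.4%) and 2098 lower (18.1%). The spike-in scaled count for SH-EP ranged from 24 to 4160 over the alternatives, and its balance turned. Of the genes called, 201 of 216 were higher with spike-ins above 0 in all libraries, 40 of 51 with the mean of the spike-ins, 15 of 24 with spike-ins of at least 50 FPKM, 126 of 188 without the DMSO library at a spike-in level of 3.67 and 93 of 154 without the CYC065 library at 5.86. As deposited, 753 of 1285 were higher when a 1.5-fold difference was also required. The 6 SH-EP libraries carry index sequences that were also used for other lines, so they may have been sequenced apart, which the labels do not say. Such a difference could not be told apart from that between SH-EP and the MYCN lines.

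Relative to the mean of the 3 mutant lines, the WT response differed for 3 genes (0.0259%) on the spike-in scale, all lower, TAF3 and C19orf47 among them, with 4594 at an unadjusted p under 0.05. As deposited, 352 genes (3.04%) differed, 174 of them higher. On the spike-in scale the count was 456 with the column suffix as a block, 793 with robust moderation, and 3869 and 1947 without the DMSO library at 4.21 and the CYC065 library at 5.48. TAF3, a subunit of the general factor TFIID, was at 8.97, 7.76 and 7.63 FPKM in the DMSO libraries and 7.65, 7.83 and 8.28 FPKM in the CYC065 libraries and changed by -0.03 as deposited in the WT line and by 0.93, 0.78 and 1.22 in T58A, S62A and T58A S62A, and the difference was -1.01 (SE 0.16, limma adjusted p = 0.00243). THAP7 and ZNF576 were also lower in the WT response, and ADAM22 and LNPEP higher, with differences of -0.83, -0.90, 0.64 and 0.66. The count as deposited was 27 without 1 DMSO library of the WT line, the one with the lowest spike-in level, and 949 without the one at a spike-in level of 4.03.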

How the data were processed

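RNA was measured by poly(A)-selected, strand-specific RNA-Seq, with ERCC spike-ins added by cell number. Per the methods, the authors aligned reads with HISAT2 (HISAT in the submitters' processing notes) to hg19/GRCh37 and computed FPKM with Cufflinks, and the FPKM as deposited cover 26228 genes and 92 spike-ins in 30 libraries. The gene annotation behind the FPKM is not given in the sources used here. Gene positions and classes come from a GRCh37 annotation (release 44), matched by symbol for 97.8% of tested genes, and promoters from RefSeq (GRCh38.p14).

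Genes whose FPKM averaged 1 or more over all libraries were tested on log2(FPKM + 0.1) with limma 3.58.1 in R 4.3.3, with all 10 groups of 3 in 1 fit and Benjamini-Hochberg adjustment over all 11575 tested genes. For the second scale, each library was shifted by the median log2 level of 55 spike-ins that averaged 1 FPKM or more. Response differences between lines were interaction terms of that fit. The fitting code was tested on simulated data, for single-gene changes on median-centred values and for the median shift alone on the spike-in scale. The simulation held no spike-in error shared by a whole library. No library pair was identical, and within-group correlations of log2 levels ranged from 0.932 to 0.948. The table holds 0 columns of other samples. Column suffixes differ from the labels' replicate numbers, so columns were matched to groups only.

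Named genes were CDK9, CDK2, MYCN, MYC and MCL1, the 10 largest non-overlapping falls and rises on each scale (falls from at least 5 FPKM, rises to at least 5 FPKM), the 5 largest small RNA rises, the 3 extreme members at each end of a list, and the 5 largest interactions in each direction. Some genes that these rules name are not reported here. The libraries and lists were chosen with earlier results of these data known. Alternatives were other pseudocounts, filters, spike-in scalings, fits of fewer groups, a 1.5-fold minimum, robust variance moderation, a block by column suffix and leaving out each library. FPKM give no counts, so no interval for counting error could be given, and p-values cover the spread between libraries.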

Additional observations from a re-analysis of the deposited data

Results flagged for a closer look

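The following responses differed between lines by an interaction term of the limma fit, past the threshold on both scales and in the same direction, among genes named above. The values are differences of the log2 change as deposited. Against parental SH-EP, the response of the MYCN WT line was higher for FAM71A by 4.27, ATF3 by 2.14 and TNFAIP3 by 2.05. It was lower for IER3, at -1.98, and for GDF6, at -1.57. It was also lower for SKI at -1.04, TAF3 at -0.99, BBC3 at -0.95, E2F5 at -0.86, TBX2 at -0.61, JUNB at -0.55 and IER2 at -0.38. IER3, JUNB and IER2 rose in the WT line all the same. The index sequences of the SH-EP libraries were reused for other lines. If the SH-EP libraries were sequenced apart, which the labels do not say, this could not be told apart from a difference between lines. Against the mean of the 3 mutant lines, the response was lower for TAF3 at -1.01 and for C19orf47 at -0.66.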

How the results depend on the processing

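No call of a named gene turned direction under the alternatives. Of their values, 2855 kept their call, 31 lost it and 9 gained it. Those lost were RPS2 (9 alternatives), RPPH1 and ZMAT3 (6 each), CCNL1 (5) and SPRY4 (1) on the spike-in scale, and CDK9 (2), CDK2 and MCL1 (1 each) as deposited, and those gained were CDKN1A and BBC3 (3 each) on the spike-in scale and MYCN (3) as deposited. The balance of higher and lower calls did turn. As deposited in the WT line, 4281 of 8238 called were higher, but 2121 of 5025 with a 1.5-fold minimum. Against SH-EP on the spike-in scale, 219 of 2100 were higher, but most were higher under 3 spike-in scalings and without either of 2 libraries, as given below. In the WT line, without a filter 149 genes were higher on the spike-in scale, with a median of -1.18, and 58 were higher with a filter at 5 FPKM. Leaving out 1 library gave 71 to 89 higher genes of 10744 to 10912 called and a median of -1.69 to -1.42. As deposited, the median was 0 without a filter, 0.20 with a filter at 5 FPKM, 0.0686 with a filter over the 6 WT libraries and 0.23 with libraries centred on their median. Leaving out 1 library gave 7814 to 7994 called. The share of genes lower per library was 46.8% as deposited. Against SH-EP on the spike-in scale, a pseudocount of 1 gave 459 higher, no filter 1007 called, a filter at 5 FPKM 125 higher, a fit of only the groups compared 1165 called, spike-ins of at least 50 FPKM 24 called (15 higher), loess 86 (43 higher), the mean of the spike-ins 51 (40 higher), and spike-ins above 0 in all libraries 216 (201 higher) with a median of -0.20. Leaving out 1 library gave 154 to 4160 called and 88 to 213 higher, with 154 (93 higher) without the CYC065 library at a spike-in level of 5.86, 188 (126 higher) and 4160 without the DMSO libraries at 3.67 and 4.21, and 306 and 3384 without the CYC065 libraries at 5.63 and 5.48. As deposited, a 1.5-fold minimum gave 1285 called (753 higher), and medians were -0.0508 without a filter, -0.13 at 5 FPKM and -0.0781 centred. Against the mutants on the spike-in scale, no filter gave 5 called, robust moderation 793 (1 higher), small RNA genes left out 58, and leaving out 1 library 0 to 3869 (0 to 4 higher), with 3869 without the DMSO library at 4.21 and 1947 without the CYC065 library at 5.48. Spike-ins of at least 50 FPKM, loess, the mean of the spike-ins, spike-ins above 0 in all libraries and a fit of only the groups compared each gave 0 called by limma, with 1038, 3322, 1574, 1704 and 3893 genes at an unadjusted p under 0.05. As deposited, no filter gave 202 called with a median of -0.0217, a filter at 5 FPKM a median of -0.0496, only the groups compared 125 (67 higher), a 1.5-fold minimum 48 (19 higher), and leaving out 1 library 27 to 949 (16 to 407 higher), with 102 and 164 without the CYC065 libraries at 5.86 and 5.63. The causes were not tested. As deposited against the mutants, 174 of 352 were higher, a near-even balance that turned under several alternatives. The filter over the 6 WT libraries, the spike-ins above 0 in all libraries and the small RNA genes left out were chosen after seeing the data. The columns carry suffixes that differ from the labels' replicate numbers. Libraries of the WT line with the same suffix showed correlations of their deviations from the group means of 0.00123, 0.0273 and 0.0715 on the spike-in scale and -0.0152, 0.0248 and 0.0681 as deposited, and not every library correlated best with its own suffix, so the suffix was not taken to pair them. A replicate block by suffix, added after seeing the data, gave 10928 called (93 higher) on the spike-in scale and 8214 as deposited in the WT line, 2244 and 3305 against SH-EP, and 456 and 287 against the mutants.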
